A study of Mus musculus with 117 samples.

Results

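Ribosome-bound RNA of mouse spinal cord astrocytes was compared between mice 70 d after spinal cord injury (SCI) and uninjured mice. The 8 libraries were chosen by their labels, 4 named Aldh1l1 70d SCI - RiboTag 1 to 4 and 4 named Aldh1l1 Uninjured - RiboTag 1 to 4, out of 117 libraries in the series. Both groups were young adult female C57BL/6 mice of the genotype Aldh1l1-CreERT2 -RiboTag, 4 mice in each, and differed in the injury, a complete forceps crush at cord level T10. The study gives age at the time of the procedure but not at collection, and describes no sham surgery. Injury, surgery and age at collection thus cannot be told apart. The Aldh1l1 promoter drives a tamoxifen-dependent Cre that tags ribosomes with a haemagglutinin (HA) epitope in astrocytes, and the tag is kept by the progeny of these cells. Tissue came from 1 mm rostral and caudal of the lesion centre, and RNA was pulled down with an antibody to HA. The RNA left after the pull-down of the same 8 mice, called flow-through, was sequenced beside it and stands for the other cells of the tissue. No label gives a day of dissection or sequencing, so time after injury and any batch cannot be told apart.

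Astrocytes clear glutamate, GABA and potassium from around synapses, couple through gap junctions, cover vessels with endfeet rich in water channels and make cholesterol for their neighbours. After injury, newly proliferated astrocytes at the edge of a lesion become a lasting border between neural tissue and the fibrotic, inflamed core. Known features of such reactive cells are a rise of intermediate filaments, of secreted proteinase inhibitors, of complement and of antigen presentation genes.

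The astrocyte libraries held 95831369 to 123505722 counts in uninjured mice and 80320133 to 105786460 counts at 70 d, and the flow-through libraries 83123231 to 115137979. Levels are given as CPM, a count divided by its library's size after scaling by the trimmed mean of M values (TMM). Among 12 astrocyte markers, 12 stood above their flow-through level in the astrocyte libraries of 70 d, as did 24.3% of 18540 genes tested. Between uninjured and 70 d astrocyte libraries 9 of these markers fell and 1, Gfap, rose (median log2 -0.92). Their sum, which a few abundant genes carry, was 57096 to 68278 CPM in uninjured and 52145 to 57276 CPM in 70 d astrocyte libraries on the scale common to both kinds of library, against 2066 to 2524 and 3293 to 4922 CPM in flow-through. Libraries of 1 group were not copies of each other, and PC1 and PC2 of the time course, with 42.1% and 28.9% of the variance, each kept the uninjured libraries apart from those of 70 d. In bulk tissue of this kind fewer cells of a type and less RNA per cell cannot be told apart.

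Of 18205 genes tested, 8253 (45.3%) differed between 70 d and uninjured at a false discovery rate (FDR) under 0.01 in the quasi-likelihood test of edgeR, adjusted after Benjamini and Hochberg, 4347 (23.9%) higher and 3906 (21.5%) lower. CPM values of the 2 groups did not overlap for 45.2% of the genes. The median log2 fold change over all genes was 0.05 with quartiles of -0.47 and 0.69, and the 28 gene lists described below ranged from a median of -2.49 to 4.76.

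**Figure D1:**
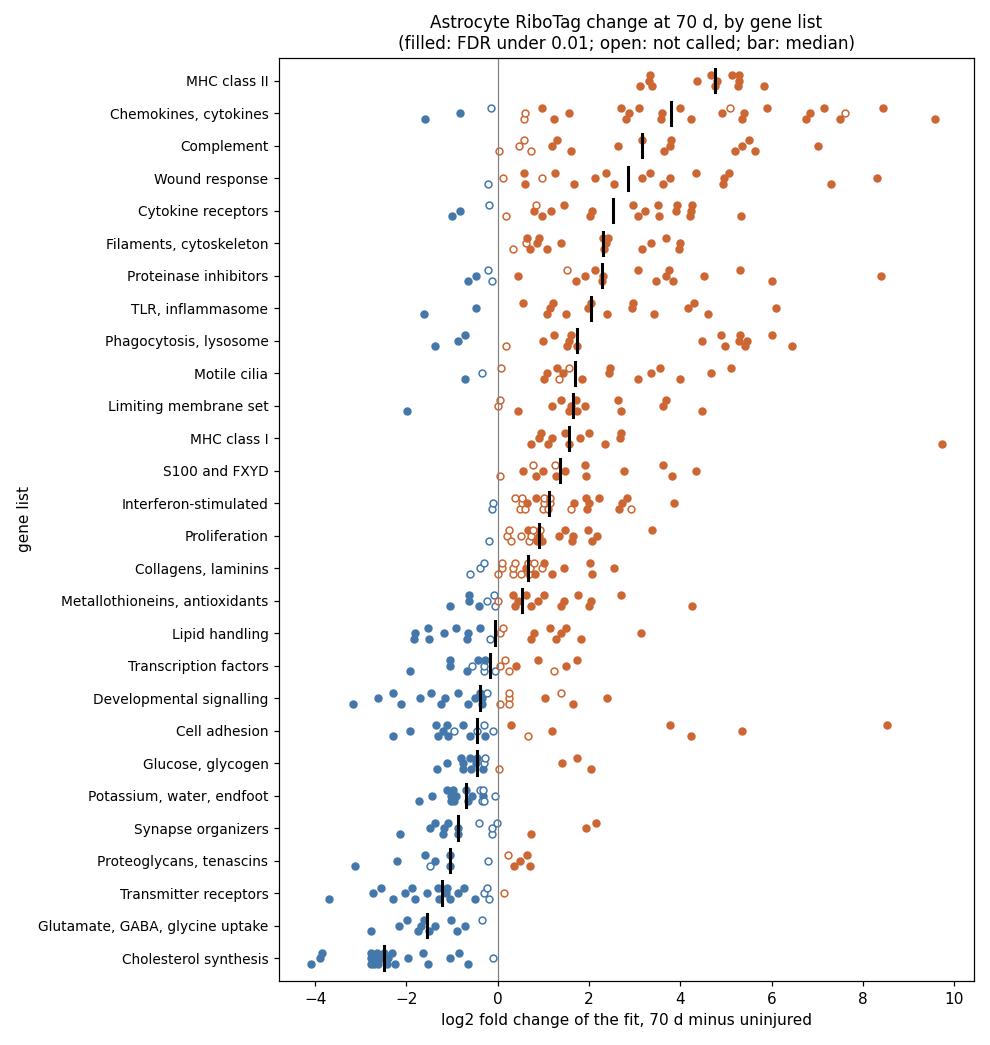
Fitted log2 fold change (x axis, 70 d minus uninjured astrocyte libraries) of each tested member of 28 gene lists (y axis, ordered by median), filled where the FDR was under 0.01, open where it was not, with a black bar at the list median. Cholesterol synthesis had the lowest median (-2.49) and MHC class II the highest (4.76).

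Genes of transmitter uptake were lower at 70 d. Of the 12 genes listed for uptake and turnover of glutamate, GABA and glycine, 11 fell and 0 rose, with a median log2 fold change of -1.56, where 21.5% of all genes fell and 23.9% rose. Slc6a11 (gene 243616), the GABA transporter GAT3, read 3907, 4167, 4521 and 4549 CPM in uninjured libraries 1 to 4 and 1082, 885, 797 and 1087 CPM in 70 d libraries 1 to 4. Every 70 d library lay below every uninjured one, and the fit gave a 4.45-fold lower level (log2 -2.15 ± 0.16, SE; adjusted p = 1.18e-11, edgeR's quasi-likelihood test). Slc7a10, the transporter of D-serine and small neutral amino acids, had the strongest fall in the list, from 592, 569, 739.5 and 762 CPM to 93.6, 132, 68.9 and 93.0 CPM, 6.87-fold. Glul, the glutamine synthetase that disposes of captured glutamate, had the highest level per kb of exon over the 8 libraries and fell 3.20-fold, from 4012 ± 552 to 1254 ± 226 CPM (SD, n = 4). Both main glutamate transporters fell as well, Slc1a2 (GLT-1) from 13356 ± 2232 to 4702 ± 598 CPM and Slc1a3 (GLAST) from 618 ± 50.7 to 377 ± 68.7 CPM. The cystine-glutamate exchanger Slc7a11 alone in this list was not called, and its log2 difference was -0.35 ± 0.22.

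Potassium buffering and gap junction coupling followed the same direction, and 12 of 17 listed genes fell with 0 rising (median log2 -0.70). Kcnj10 (gene 16513), the Kir4.1 channel that carries potassium into astrocytes, read 5211, 5695, 6975 and 6769 CPM in uninjured mice and 2055, 2018, 1509 and 1854 CPM at 70 d. All 4 values at 70 d were under the lowest uninjured value, a 3.32-fold difference (log2 -1.73 ± 0.16). Its channel partner Kcnj16 fell 2.73-fold, the connexin 43 gene Gja1 2.04-fold and the connexin 30 gene Gjb6 1.88-fold. The water channel of the endfoot, Aqp4, was not called, with 2396, 2740.3, 3241 and 2482 CPM in uninjured and 2569, 1410.3, 1948 and 2663 CPM in 70 d libraries, and the ranges overlapped.

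Receptors for transmitters fell in 16 of 20 cases and rose in 0 (median log2 -1.22). Gabbr2, a subunit of the GABA-B receptor, read 27.4, 42.9, 56.4 and 43.5 CPM in uninjured and 3.59, 3.91, 2.49 and 3.21 CPM in 70 d libraries, 12.9-fold lower. Grin2c, an NMDA receptor subunit, fell 6.60-fold and Grm3, a metabotropic glutamate receptor, 4.92-fold. The neurotensin receptor Ntsr2, the gene of this list with the highest level per kb, fell from 1741 ± 175 to 953 ± 72.8 CPM (SD, n = 4). Among 15 secreted or surface organizers of synapses, 8 fell and 3 rose. Sparcl1 (hevin) fell 2.80-fold and the glypican gene Gpc5 4.38-fold, while thrombospondin 1, Thbs1, rose from 5.00, 5.30, 4.45 and 3.94 CPM to 22.3, 12.8, 20.4 and 27.3 CPM and Chrdl1 from 1.69 ± 0.909 to 6.47 ± 2.05 CPM.

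Cholesterol synthesis had the lowest median of the 28 lists. Of 23 genes from its regulators to its last enzymes, 22 fell, 0 rose, and the median log2 fold change was -2.49. The one not called was Ebp, at log2 -0.11 ± 0.10. Insig1 (gene 231070), the sensor protein that holds the sterol regulator SREBP in the endoplasmic reticulum and is itself a target of it, read 321, 303.8, 322 and 316 CPM in uninjured and 19.8, 19.8, 17.2 and 16.8 CPM in 70 d libraries. The spread within each group was small against the 17.1-fold difference (log2 -4.10 ± 0.14; adjusted p = 1.36e-18, edgeR's quasi-likelihood test). Hmgcs1 (gene 208715), which makes the HMG-CoA that starts the pathway and has its highest level per kb, read 868, 739, 743 and 609 CPM and 115, 153, 97.6 and 103 CPM in the same order, a 6.31-fold fall. Idi1, in the middle of the pathway, fell from 36.5, 32.1, 40.2 and 33.1 CPM to 2.64, 2.79, 1.53 and 2.88 CPM, 14.4-fold. The regulator itself, Srebf2, fell 3.11-fold.

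A promoter window of Hmgcs1 is shown because it holds the letters of a sterol regulatory element, TCACNCCAC, in capitals, within 250 bases before the RefSeq start of the gene on the plus strand of chr13:119690178-119690257 (GRCm38.p6).
Hmgcs1: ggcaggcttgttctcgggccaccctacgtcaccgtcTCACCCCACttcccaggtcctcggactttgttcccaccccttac
The search covered both strands and the 250 bases before each start. Hmgcs1 was the only 1 of 17 genes of the list with a promoter in the RefSeq table to hold these letters, against 230 of 18454 genes (1.25%) overall. A match is a description of the letters, and its absence from this window says nothing of binding elsewhere.

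Genes that handle rather than make lipid went both ways, with 8 of 20 higher and 9 lower. Both cholesterol exporters rose, Abca1 from 41.2, 55.5, 72.3 and 62.1 CPM to 230.0, 147, 171 and 274 CPM and Abcg1 from 9.21, 9.78, 6.16 and 4.80 CPM to 59.2, 48.2, 76.6 and 81.4 CPM, 3.56-fold and 8.85-fold, with no overlap of the groups. Apoe, the carrier of the exported lipid, had the highest level per kb in the list and rose 2.21-fold, from 5168 to 11400.1 CPM per kb. The fatty acid synthase gene Fasn fell 3.55-fold and Acsl6, which activates long-chain fatty acids, 3.54-fold. In glucose and glycogen metabolism, 10 of 16 genes fell and 3 rose. Pygm, a glycogen phosphorylase, fell 2.51-fold and Aldoc, the aldolase of astrocytes, 2.16-fold. Those that rose were the lactate transporters Slc16a1 (2.65-fold) and Slc16a3 (4.14-fold) and the hexokinase gene Hk2 (3.31-fold).

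Transcription factors tied to astrocyte identity went both ways. Of 18, 4 rose and 6 fell (median log2 -0.17), not far from the shares over all genes, of which 23.9% rose and 21.5% fell. Sox9, which is needed to make astrocytes, read 225, 267, 325 and 320.1 CPM in uninjured and 284, 337, 303.3 and 347 CPM in 70 d libraries and was not called. Id3, an inhibitor of basic helix-loop-helix factors, rose 3.31-fold, from 188 ± 10.1 to 620.4 ± 79.3 CPM, and Id1 rose 2.80-fold. Nfix fell 2.08-fold. Developmental signalling fell in 14 of 23 genes and rose in 3. Ptch1, a receptor and target of sonic hedgehog, was at 231, 282, 356 and 322 CPM in uninjured and 58.4, 39.2, 38.2 and 56.2 CPM in 70 d libraries, 6.20-fold lower. Hhip, a decoy receptor of the same ligand, fell 9.07-fold, from 23.5, 19.1, 18.6 and 16.2 CPM to 1.82, 1.88, 2.31 and 2.51 CPM. Gli1, a transcription factor of hedgehog signalling, fell 4.94-fold. Groups did not overlap for Ptch1, Hhip or Gli1. The growth factor receptor Fgfr3 fell 3.25-fold. The 3 genes of the list that rose belong to TGF-beta signalling, the ligand Tgfb1 (5.26-fold) and the receptors Tgfbr1 (2.06-fold) and Tgfbr2 (3.13-fold).

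Filament and cytoskeleton genes rose in 15 of 17 cases and fell in 0 (median log2 2.31), where 23.9% of all genes rose. Vim (gene 22352), the intermediate filament vimentin, read 184, 194.3, 138 and 112 CPM in uninjured and 1979.8, 2378, 1703 and 2057 CPM in 70 d libraries. The lowest 70 d library was far above the highest uninjured one, and the fold was 12.9 (log2 3.69 ± 0.16; adjusted p = 6e-17, edgeR's quasi-likelihood test). Gfap, the classical marker of reactivity and the highest gene of the list per kb, rose 2.10-fold, from 15444, 17732, 16402 and 14253 CPM to 34290.0, 30813, 35613 and 33621 CPM. Acta2, smooth muscle actin, and Anxa3, an annexin, rose by log2 4.00 ± 0.25 and 3.98 ± 0.41 from low levels.

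Inhibitors of proteinases were also higher, 15 of 20, with 2 lower (median log2 2.29). Timp1 (gene 21857), an inhibitor of matrix metalloproteinases, read 5.88, 4.78, 3.63 and 4.38 CPM in uninjured and 144, 241, 188 and 163 CPM in 70 d libraries, 39.4-fold higher. Serpina3n, a secreted serine proteinase inhibitor, rose 14.2-fold, from 88.2 ± 10.6 to 1254 ± 519.7 CPM. The Serpina3 genes are near copies of each other, so that reads may be split among them. Cystatin C, Cst3, the highest of the list per kb, was not called and read 2723 ± 209 and 2487 ± 226 CPM (SD, n = 4).

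Calcium-binding S100 proteins and FXYD regulators of the sodium pump rose in 11 of 14 genes and fell in 0. S100a4 rose from 10.7, 7.31, 5.61 and 5.30 CPM to 112, 191, 157 and 125 CPM (20.2-fold) and S100a6 from 167, 137, 98.7 and 93.7 CPM to 1262, 2117, 1459.7 and 1238 CPM (12.2-fold). S100b, the usual astrocyte marker of this family, rose 1.46-fold. Of 22 metallothionein, antioxidant and chaperone genes, 14 rose and 4 fell. The small heat shock protein Hspb1 went from 33.9, 42.3, 34.9 and 33.7 CPM to 534, 804, 736 and 687 CPM, 19.1-fold, and the peroxidase Gpx1 rose 6.48-fold. Metallothioneins bind zinc and copper, and Mt1 read 3305, 2944, 3049 and 3475 CPM in uninjured and 9263, 13618, 11363 and 9268 CPM in 70 d libraries while Mt2 read 1462, 1155, 1233 and 1332 CPM and 4732, 5998, 5869 and 4658 CPM. Both pairs of groups were apart, by 3.41-fold and 4.10-fold, and the 2 genes are close paralogs.

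The promoter stretches of both are shown because each holds the core letters of a metal response element, TGCACNC, in capitals (read on either strand), at chr8:94179029-94179088 and chr8:94172531-94172610 (GRCm38.p6, RefSeq starts on the plus strand).
Mt1: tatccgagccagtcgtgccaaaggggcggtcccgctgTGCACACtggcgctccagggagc
Mt2: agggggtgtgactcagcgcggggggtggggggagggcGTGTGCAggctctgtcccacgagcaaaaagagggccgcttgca
These letters were common, in 2178 of 18454 genes (11.8%), and stood in 3 of the 16 genes of the list with a promoter in the table.

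Complement genes rose in 13 of 17 cases and fell in 0 (median log2 3.16). C3 (gene 12266), the central component, had the highest level per kb and read 431, 549, 632 and 479.9 CPM in uninjured and 2980.2, 3719.9, 3202 and 3105 CPM in 70 d libraries, 6.22-fold higher (log2 2.64 ± 0.17). At 70 d it stood 3.22 ± 0.20 above its flow-through level on the log2 scale. C4b rose 3.03-fold. The chains of C1q, which microglia and macrophages are known to make, read for C1qa 11.2, 12.7, 8.86 and 5.62 CPM in uninjured and 324, 287, 666 and 464 CPM in 70 d libraries, and at 70 d the astrocyte minus flow-through difference was log2 -2.24 ± 0.27. C3ar1, the receptor for a C3 fragment, rose 49.3-fold with the 2 highest values in 70 d libraries 3 and 4.

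All 13 genes listed for MHC class I presentation rose (median log2 1.56), a list in which the H2 genes are near copies. The immunoproteasome subunits Psmb8 and Psmb9, which cut peptides for presentation, rose 6.40-fold and 6.46-fold. H2-K1, a classical heavy chain, went from 217 ± 20.4 to 469 ± 42.8 CPM. B2m, the light chain and highest gene per kb, averaged 385 ± 41.7 CPM in uninjured libraries and read 662, 392, 745 and 736 CPM at 70 d, with 70 d library 2 inside the uninjured range, and its 1.64-fold rise lost its call when any of 5 libraries was left out, each of uninjured 3 and 4 and 70 d 1, 3 and 4. H2-M2 had no count in any uninjured library and 361 counts at 70 d, at least 150.3-fold higher against a floor of 3 counts over the group.

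MHC class II presentation had the highest median of all lists, 4.76 on the log2 scale, and all 13 genes rose. H2-Ab1 (gene 14961), a beta chain, read 17.2, 14.99, 3.92 and 5.96 CPM in uninjured and 399, 357, 476 and 411 CPM in 70 d libraries. Uninjured libraries 1 and 2 were higher than 3 and 4, and all of them were far below 70 d, 39.0-fold (log2 5.29 ± 0.40; adjusted p = 5.91e-11, edgeR's quasi-likelihood test). The partner chain H2-Aa rose 38.2-fold and the invariant chain Cd74 34.9-fold, to 977, 811, 1120.0 and 1011 CPM. Ciita, the master regulator of class II, rose from 0.358, 0.361, 0.245 and 0.0924 CPM to 4.09, 1.503, 2.63 and 2.53 CPM. In the 4 libraries of 70 d the highest value of Cd74, H2-Ab1, H2-Aa or H2-Eb1 was less than 2-fold above the lowest. Ctss, the cathepsin of the same pathway, read 322, 306, 789 and 614 CPM there, with 70 d libraries 3 and 4 above 1 and 2. Against flow-through at 70 d, 2 of the 13 class II genes were higher in astrocyte libraries and 4 lower, with a median log2 difference of 0.001. Of all genes 24.3% were higher and 24.8% lower. Presentation by class II is a function of professional antigen presenting cells, and how far such cells enter these values was not tested.

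Genes stimulated by interferon rose in 11 of 26 cases and fell in 0 (median log2 1.11). At an FDR under 0.05 the count was 20. Gbp2, a guanylate-binding protein, read 10.6, 15.2, 9.31 and 6.53 CPM in uninjured and 123, 38.5, 45.5 and 57.0 CPM in 70 d libraries, with 70 d library 1 over 2-fold above each of the others, and rose 6.34-fold. Ifitm3, a membrane protein against virus entry, rose 3.89-fold, from 60.0, 81.5, 48.8 and 46.4 CPM to 222, 260.4, 235 and 203 CPM. Bst2 (tetherin) rose 4.67-fold and Isg15, a ubiquitin-like modifier, 3.83-fold. Ifit1, Rsad2 and Mx1 were not called, and Ifit1 read 6.98, 15.2, 2.92 and 2.75 CPM and 13.7, 8.53, 11.6 and 8.51 CPM with overlap.

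Promoter stretches of 4 of these genes are shown, 3 that rose (Bst2, Gbp2, Isg15) and 1 that was not called (Ifit1), because each holds the letters of an interferon-stimulated response element (TTTC, any 2 bases, then TTTC) on either strand, in capitals with overlapping matches joined. They lie at chr8:71537558-71537637 (minus strand), chr3:142620569-142620648 (plus), chr4:156200846-156200925 (minus) and chr19:34640750-34640829 (plus) of GRCm38.p6, within 250 bases before the RefSeq starts, and are written along the strand of the gene.
Bst2: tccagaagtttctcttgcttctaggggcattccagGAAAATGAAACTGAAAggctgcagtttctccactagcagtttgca
Gbp2: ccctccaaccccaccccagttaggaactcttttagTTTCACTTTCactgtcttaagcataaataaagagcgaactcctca
Isg15: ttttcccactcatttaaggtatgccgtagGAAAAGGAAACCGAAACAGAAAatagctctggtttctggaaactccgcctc
Ifit1: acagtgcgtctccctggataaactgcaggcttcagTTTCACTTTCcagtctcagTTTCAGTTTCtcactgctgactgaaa
Of 19 genes of the list with a promoter in the table, 11 held these letters, against 636 of 18454 genes (3.45%). Of the 11 genes with the letters 5 rose at 70 d (median log2 1.61), and of the 8 without them 4 (median log2 1.05). These genes are too few to tell whether the letters go with the rise.

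Chemokines and cytokines rose in 21 of 28 genes and fell in 2 (median log2 3.79). Ccl8 (gene 20307), an attractant of monocytes, read 0.0387, 0.019, 0 and 0 CPM in uninjured and 15.04, 10.1, 12.2 and 11.6 CPM in 70 d libraries, 762-fold higher on 6 uninjured counts in all. Cxcl9, an attractant of T cells, was uneven at 70 d, with 11.6, 2.19, 1.37 and 3.39 CPM. Cxcl10 rose 18.8-fold, from 2.31 ± 0.94 to 43.6 ± 32.7 CPM, and Ccl2 40.5-fold. The 2 that fell were Il33, an alarm cytokine of glia, 3.01-fold, and Il18, 1.77-fold. Spp1, osteopontin, rose 2.96-fold and was no longer called without 70 d libraries 3 and 4. Of 22 receptors and antagonists, 17 rose and 2 fell, among them Tnfrsf1a, the type 1 TNF receptor and the highest of the list per kb, 1.95-fold higher, and Cx3cr1, the fractalkine receptor of microglia, 18.98-fold higher. Toll-like receptor and inflammasome genes rose in 15 of 17 cases and fell in 2. Casp4, the sensor of intracellular lipopolysaccharide, rose from 0.0194, 0.199, 0.0363 and 0.104 CPM to 4.54, 4.68, 9.42 and 5.99 CPM. Tlr3, the receptor for double-stranded RNA, fell 1.39-fold and lost its call when uninjured library 3 or 70 d library 2 or 3 was left out.

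**Figure D2:**
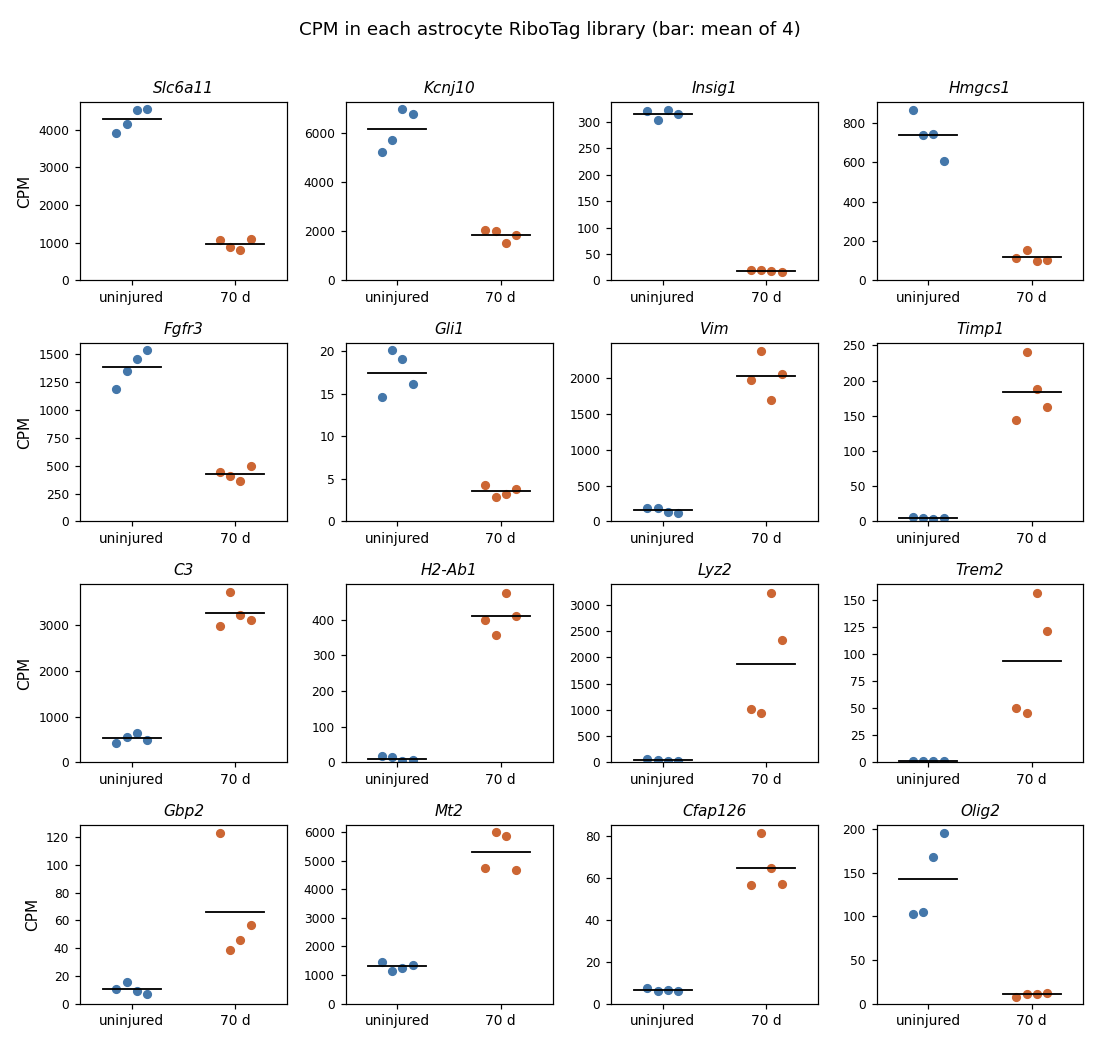
CPM (y axis, linear from 0) of 16 genes in each of the 4 uninjured and 4 70 d astrocyte libraries (x axis), with a bar at the mean. Lyz2 and Trem2 split at 70 d into 2 low and 2 high libraries, while H2-Ab1, C3 and Vim did not.

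Phagocytic and lysosomal genes rose in 15 of 19 cases and fell in 3. Those that rose most are genes of myeloid cells. Lyz2 (gene 17105), a lysozyme and the highest of the list per kb at 70 d, read 65.8, 47.0, 30.6 and 28.5 CPM in uninjured and 1019, 940.2, 3229 and 2325 CPM in 70 d libraries (43.7-fold). Trem2, a lipid receptor of microglia and macrophages, read 1.58, 1.38, 1.54 and 1.28 CPM and 50.2, 45.7, 157 and 121 CPM (64.6-fold), and Cd68 rose 42.8-fold. For each of the 3, 70 d libraries 3 and 4 were over 2-fold above libraries 1 and 2. The receptors by which astrocytes themselves engulf synapses fell, Mertk 2.60-fold and Megf10 1.83-fold, and so did Axl, 1.64-fold.

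Markers of myeloid cells moved with the immune gene lists, but the lists are not separate readouts. Trem2 of the phagocytosis list is also the marker with the largest rise (log2 6.01) among those shared by microglia and macrophages. All 16 markers shared by microglia and macrophages rose, and their summed level went from 76.9, 72.7, 53.8 and 47.8 CPM in uninjured libraries to 1161, 982, 2605 and 1922 CPM at 70 d. The 12 macrophage markers summed to 112, 122, 65.2 and 47.3 CPM and 1239.8, 1128, 3501 and 2537 CPM, with 9 members higher and 1 lower, and the 8 microglia markers to 139 to 169 CPM and 271 to 379 CPM, with 5 higher and 1 lower. No marker of these lists was at 0 counts in either group. Against flow-through at 70 d, 13 of the 16 shared markers were lower in astrocyte libraries, as were 24.8% of all genes, and 0 were higher, with a median log2 difference of -1.62. Of the 8 microglia markers 7 were lower and 1 higher (median log2 -2.15). The 12 macrophage markers differed from both lists, with 0 lower and 1 higher (median log2 0.06). Beside these markers stand the complement, class II, chemokine, receptor, Toll-like receptor and phagocytosis lists, and the part of myeloid RNA in their rise was not tested. Without 70 d libraries 3 and 4, the highest in macrophage markers, the calls numbered 13 in complement, 12 in class I, 13 in class II, 11 in interferon-stimulated, 19 in chemokines, 19 in cytokine receptors, 13 in Toll-like receptors and 18 in phagocytosis. Libraries 1 and 2, which stayed in, still held 1161 and 982 CPM of the shared markers, so these counts cannot set myeloid RNA apart. These alternatives were chosen after seeing the data.

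Markers of other cell types were counted in the same way. Oligodendrocyte markers fell in 8 of 10 cases, from 7276, 7538, 3889 and 3277 CPM in uninjured to 1827, 1739.9, 2004 and 1752 CPM in 70 d libraries, and 4 were called without 70 d libraries 1 and 2. Neuron markers fell in 7 of 10 cases, and 70 d library 2 (169, 402.8, 100.4 and 113 CPM over the 4) stood above the rest. The part of oligodendrocyte and neuron RNA in the falls of Olig2, Sez6l and Unc13a given below was not tested. In edgeR's fit 0 of 5 endothelial, 0 of 6 stromal and 0 of 6 Schwann cell markers were called at an FDR under 0.01, as in DESeq2, with 1, 3 and 0 of them at an unadjusted p under 0.05. Of 12 neutrophil markers 1 rose, of 5 erythrocyte genes 1, of 6 T cell markers 5 and of 8 B cell markers 4. The T cell markers had a median log2 of 4.25, from -0.44 for the member not called to 6.08. Their sum was 21.01 to 27.3 CPM in uninjured and 27.3 to 33.5 CPM in 70 d libraries. Ighg2b, an immunoglobulin chain of the B cell list, had no count in uninjured libraries. T cell calls numbered 3 when uninjured library 1 or 3 was left out.

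**Figure D3:**
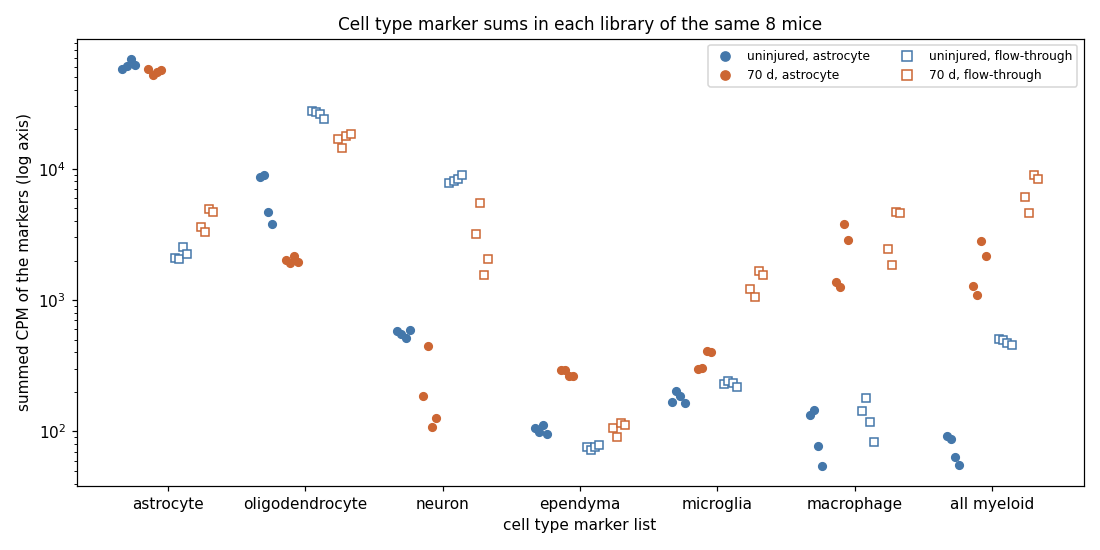
Summed CPM of cell type markers (y axis, log scale) in each astrocyte (filled circles) and flow-through (open squares) library of the same 8 mice, uninjured and 70 d. All values are on the scale common to the 16 libraries, on which all myeloid markers sum to 55.5 to 92.1 CPM in uninjured and 1087 to 2804 CPM in 70 d astrocyte libraries and to 4625 to 8953 CPM in 70 d flow-through libraries.

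Wound response and clotting genes rose in 17 of 20 cases and fell in 0. Tgm1, a transglutaminase that cross-links the envelope of skin, read 0.232, 0.551, 0.399 and 0.474 CPM in uninjured and 44.6, 64.4, 79.8 and 74.1 CPM in 70 d libraries, 159-fold higher (log2 7.31 ± 0.23). Lcn2, lipocalin 2, rose 31.1-fold, from 22.5, 11.5, 7.60 and 9.94 CPM to 445, 509.6, 351 and 297 CPM. Both stood above their flow-through level at 70 d, by log2 3.58 ± 0.36 and 3.02 ± 0.33. Collagens, laminins and other fibrous matrix rose in 8 of 23 cases, and 12 of the list were lower than in flow-through at 70 d. Fn1, fibronectin, rose 4.06-fold and Postn, periostin, 5.86-fold, while Col1a1 and Col3a1 were not called, at log2 0.71 ± 0.31 and 0.69 ± 0.37. With the 2 groups fitted alone, 4 of the matrix genes were called. Proteoglycans and tenascins fell in 6 of 13 cases and rose in 4. Neurocan (Ncan) fell 3.02-fold, from 302 ± 47.1 to 99.9 ± 17.8 CPM, and brevican (Bcan) 2.08-fold, both of them chondroitin sulfate proteoglycans of the perineuronal matrix. Versican (Vcan), Cspg4 and tenascin C (Tnc) rose by log2 0.64 ± 0.18, 0.71 ± 0.15 and 0.49 ± 0.11.

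Cell adhesion genes went both ways, 6 of 21 higher and 10 lower. Cdsn, corneodesmosin, an adhesive protein of the skin surface, read 0.494, 0.494, 0.444 and 0.289 CPM in uninjured and 15.2, 13.9, 18.01 and 23.4 CPM in 70 d libraries, 40.5-fold higher, and Icam1 rose 18.7-fold. Cldn10, a tight junction protein, fell 2.57-fold and the integrin subunit Itgb8, which activates latent TGF-beta, 4.89-fold. A list of 16 genes holds 14 that the study names as shared by perimeningeal limiting membrane and lesion border astrocytes. It also holds Myoc and Cidea, which the study names as selective for healthy perimeningeal astrocytes. The study compared the 14 between clusters of single nuclei. It had also named some of them, such as Id3, A2m, Lxn, Prdx6 and Fxyd1, from RiboTag data that include these 8 libraries. The list is therefore not independent of the values given here. Of the 14 shared genes 13 rose and 0 fell (median log2 1.72). Lgals3, galectin 3, rose 22.2-fold and the peroxiredoxin Prdx6 2.61-fold. Myoc, myocilin, fell from 367, 377, 314 and 275 CPM to 103, 67.1, 97.2 and 70.7 CPM, and Cidea was not called.

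Proliferation genes were still above the uninjured level, 12 of 21 higher and 0 lower, and 6 with the 2 groups fitted alone. Ccnd1, cyclin D1, rose 10.4-fold, from 7.38, 9.14, 5.42 and 5.27 CPM to 71.1, 85.8, 63.8 and 63.8 CPM. Mki67, made by dividing cells, was low and uneven, with 3.71, 2.13, 1.32 and 2.60 CPM in uninjured and 4.37, 19.8, 11.6 and 5.29 CPM in 70 d libraries, and Cdkn1a, an inhibitor of division, was not called. The sums of neutrophil, erythrocyte and B cell markers were, like Mki67, highest in 70 d libraries 2 and 3. Neutrophil markers summed to 200.8, 619.5, 668.5 and 192.6 CPM at 70 d. Macrophage and shared myeloid markers were highest in 70 d libraries 3 and 4 instead. On the scale common to both kinds of library, neutrophil markers summed to 216 to 720 CPM in 70 d astrocyte and 96.4 to 158 CPM in 70 d flow-through libraries. Erythrocyte genes summed to 94.1 to 365 and 26.1 to 125 CPM, and B cell markers to 38.9 to 72.9 and 110 to 154 CPM. Of 12 neutrophil markers 7 were higher and 1 lower in astrocyte libraries at 70 d, where 24.3% and 24.8% of all genes were. The part of RNA from these cells in the proliferation result was not tested. Genes of motile cilia rose in 13 of 18 cases and fell in 1. Cfap126 (gene 75472), a protein of the axoneme, read 7.34, 5.89, 6.36 and 5.79 CPM in uninjured and 56.7, 81.4, 64.7 and 56.9 CPM in 70 d libraries, 10.2-fold higher with tight groups (log2 3.35 ± 0.14; adjusted p = 8.83e-17, edgeR's quasi-likelihood test). Foxj1, the master regulator of motile cilia, rose 2.69-fold, from 67.8 ± 6.10 to 182 ± 7.69 CPM. The dynein chain gene Dnaic1 was the one that fell, by 1.66-fold from a mean of 33.1 ± 1.66 CPM (SD, n = 4). Markers of ependyma, the ciliated lining of the central canal, rose in 5 of 6 cases and summed to 96.2 to 111 CPM in uninjured and 263 to 293 CPM in 70 d libraries on the scale common to both kinds of library. In flow-through they summed to 72.0 to 78.5 and 90.5 to 115 CPM, and their part in the cilia result was not tested. The largest rise of the ependyma list, log2 5.11, was also that of the cilia list. The lists thus share a gene and are not separate readouts.

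The genes with the largest folds, some of them members of the lists above, were chosen by size among genes of at least 10 CPM whose groups did not overlap. Ccn5 (gene 22403), a matricellular protein of the CCN family, read 1.17, 1.55, 0.58 and 0.45 CPM in uninjured and 257, 294, 308 and 546 CPM in 70 d libraries, 371-fold higher. Igfbpl1, an insulin-like growth factor binding protein, read 0.368, 0.19, 0.127 and 0.462 CPM and 28.3, 58.5, 64.3 and 101 CPM, 224-fold higher. All 70 d libraries of both genes lay far above all uninjured ones. Cd5l, a secreted macrophage protein, read 1.72, 2.44, 57.8 and 21.6 CPM at 70 d, so that libraries 3 and 4 carried most of a 318-fold rise. Atp6v0d2 and Ms4a7, both known from macrophages, rose 215-fold and 91.5-fold with the same 2 libraries highest, and Mmp12, macrophage elastase, rose 315-fold. Tpsb2, a tryptase of mast cells, went from 0.232, 0.228, 0.0181 and 0 CPM to 18.03, 10.95, 18.5 and 25.4 CPM, and Bcl2a1b, an anti-death gene with near copies, rose 109-fold.

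Among the genes that fell most, Aqp6 (gene 11831), an anion-conducting aquaporin, read 36.7, 28.4, 41.0 and 40.4 CPM in uninjured and 0.96, 2.04, 0.312 and 0.4 CPM in 70 d libraries, 39.8-fold lower. Olig2 (gene 50913), a transcription factor of the oligodendrocyte lineage that some astrocytes also keep, read 103, 105, 168 and 195 CPM and 7.75, 11.3, 10.8 and 12.1 CPM, 13.6-fold lower with groups far apart. Lgr6, a receptor for R-spondins, fell 16.6-fold, and Kirrel2, an adhesion protein of the immunoglobulin family, 15.1-fold. Sez6l, a membrane protein of the nervous system, read 17.6, 22.1, 27.9 and 31.3 CPM in uninjured and 1.04, 2.55, 0.299 and 1.59 CPM in 70 d libraries. Unc13a, a vesicle priming factor of synapses, fell 17.6-fold but was spread in uninjured mice, with 59.0, 32.1, 150.3 and 234 CPM.

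Whether the change was that of the whole tissue was asked with the flow-through libraries of the same mice, fitted with the 8 astrocyte libraries on a common scale. In flow-through 7934 of 18540 genes (42.8%) differed between 70 d and uninjured. The change itself differed between astrocyte and flow-through libraries for 3345 genes at an FDR under 0.01 in edgeR's test of the interaction, 1098 (5.92%) with the more positive and 2247 (12.1%) with the more negative change in astrocytes. This split rested on single flow-through libraries, and was 1498 and 1429 without uninjured flow-through library 2 and 1333 and 1315 without 70 d flow-through library 3. The comparisons share the 8 astrocyte libraries with those above, so values are given side by side. Glutamate and GABA uptake had 10 of 12 genes with the more negative change in astrocytes, potassium and water 12 of 17, lipid handling 14 of 20, developmental signalling 14 of 23 and cholesterol synthesis 13 of 23. Of the 12 general astrocyte markers 10 had the more negative change too, and 0 the more positive. In flow-through 9 of these markers rose and 1 fell, and 6 fell in astrocyte libraries while rising in flow-through. Cholesterol synthesis fell in flow-through as well, in 21 of 23 genes with 1 rising (median log2 -1.40), where 20.1% of all genes fell. The part of astrocyte RNA in flow-through was not tested. Motile cilia had 10 of 18 and class II 7 of 13 genes with the more positive change in astrocytes, whereas phagocytosis had 0, with 9 more negative.

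Single genes show the size of this. Olig2 was 73.4, 71.8, 69.1 and 71.9 CPM in uninjured and 57.4, 46.1, 57.8 and 60.8 CPM in 70 d flow-through libraries and was not called there, while the difference of its change, astrocyte minus flow-through, was -3.50 ± 0.26 on the log2 scale (adjusted p = 8e-08, edgeR's quasi-likelihood test). Apoe rose in both, from 1089, 1049, 1122 and 1066 CPM to 29924, 22703, 47911 and 48943 CPM in flow-through, and its difference of change was -4.08 ± 0.30. Gjb6 rose in flow-through (log2 1.56 ± 0.12) and fell in astrocytes. In all, 313 genes fell in astrocyte libraries and rose in flow-through. For Insig1 the log2 change was -1.73 ± 0.14 in flow-through, and the difference of change -2.48 ± 0.20. In the other direction stood Ccn5, at 5.40 ± 0.51 more positive in astrocytes (adjusted p = 1.34e-06, edgeR's quasi-likelihood test), and H2-Ab1, at 2.68 ± 0.61 (adjusted p = 0.00341). The difference was not called for Vim, at 0.20 ± 0.37, or for Lyz2, at -0.15 ± 0.57.

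**Figure D4:**
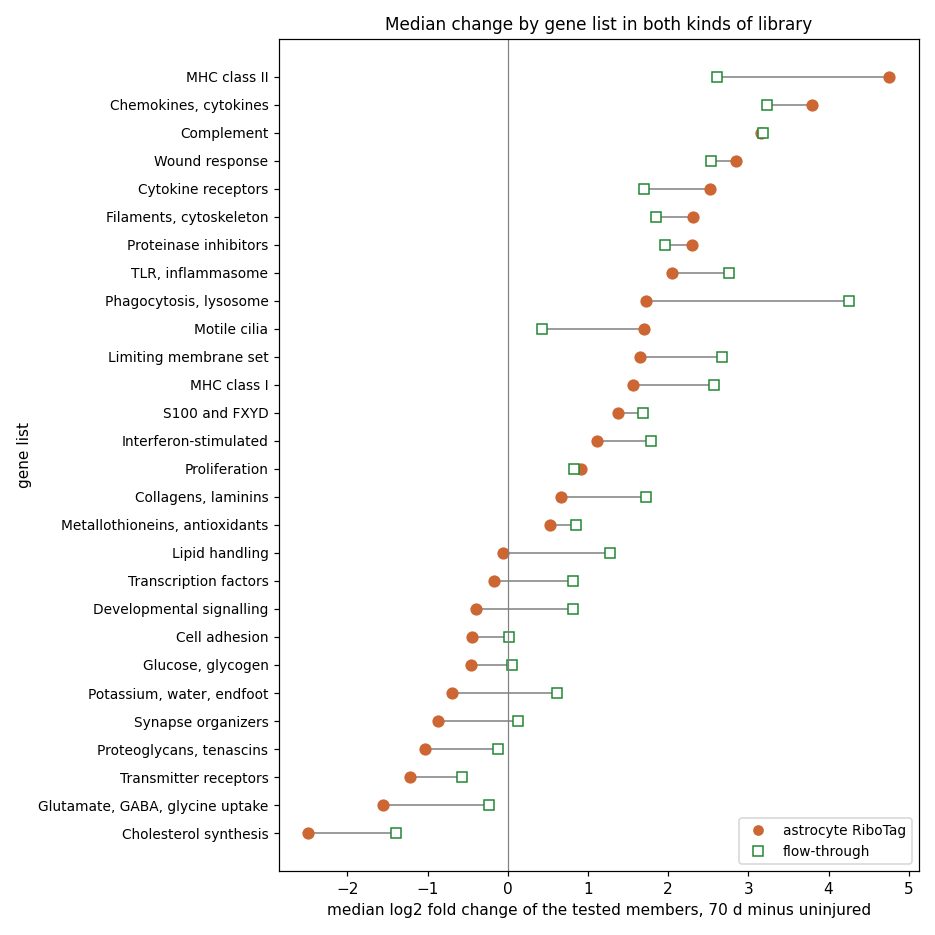
Median log2 fold change (x axis, 70 d minus uninjured) of the tested members of each gene list (y axis) in astrocyte (filled circles) and flow-through (open squares) libraries. The list of potassium, water and endfoot genes lies at -0.70 in astrocyte and 0.61 in flow-through libraries, phagocytosis at 1.73 and 4.26, and motile cilia at 1.70 and 0.42.

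How far the 70 d state had settled was asked against 42 d, with 4 astrocyte libraries, in the same fit and with the same 70 d libraries. From 42 d to 70 d 2293 genes (12.6%) differed, 936 (5.14%) higher and 1357 (7.45%) lower, and the count ran from 1391 without 70 d library 2 to 2630 without 70 d library 4. In cholesterol synthesis 0 rose and 3 fell, in uptake 0 and 0, in class II 0 and 1, in phagocytosis 0 and 6 and in metallothioneins and antioxidants 6 and 1. The log2 difference from 42 d was -1.41 ± 0.28 for Ctss and -1.37 ± 0.32 for C3ar1 (edgeR's quasi-likelihood test, adjusted p = 0.000909 and 0.00285). Cfap126 rose by 0.89 ± 0.13 and Mt1 by 0.78 ± 0.16. For C3 the difference from 42 d was -0.01 ± 0.16 and for Vim -0.01 ± 0.14, neither called.

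Against 2 d, with 5 libraries, 10112 genes (55.5%) differed, 5083 (27.9%) higher at 70 d and 5029 (27.6%) lower. The lists parted by when they moved. All 23 cholesterol genes were lower at 70 d than at 2 d. Hmgcs1 was at 555 ± 119.9 CPM (SD, n = 5) at 2 d against 739.8 ± 106 in uninjured mice, and at 111 ± 11.7 CPM (SD, n = 4) by 5 d. Insig1 was at 135 ± 26.1 CPM at 2 d and 27.0 ± 2.00 CPM at 5 d. Uptake genes had mostly come up from their level at 2 d, with 9 of 12 higher and 2 lower at 70 d than at 2 d. Slc6a11 was at 334 ± 47.8 CPM at 2 d and 755 ± 95.8 CPM at 28 d, still below the uninjured mean at 70 d. Potassium and water genes were higher than at 2 d in 13 of 17 cases and lower in 0, and ciliary genes higher in 15 of 18. Proliferation genes were lower in 15 of 21, wound response genes in 13 of 20, chemokines in 12 of 28 and filaments in 11 of 17. Class II genes were higher in 7 of 13, and H2-Ab1 was at 72.0 ± 16.6 CPM at 2 d. C3 was at 102 ± 23.2 CPM at 2 d, under its uninjured mean, and at 3189 ± 584 CPM by 28 d. Lyz2 was at 12478 ± 1678 CPM at 5 d and lower at each later time point.

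**Figure D5:**
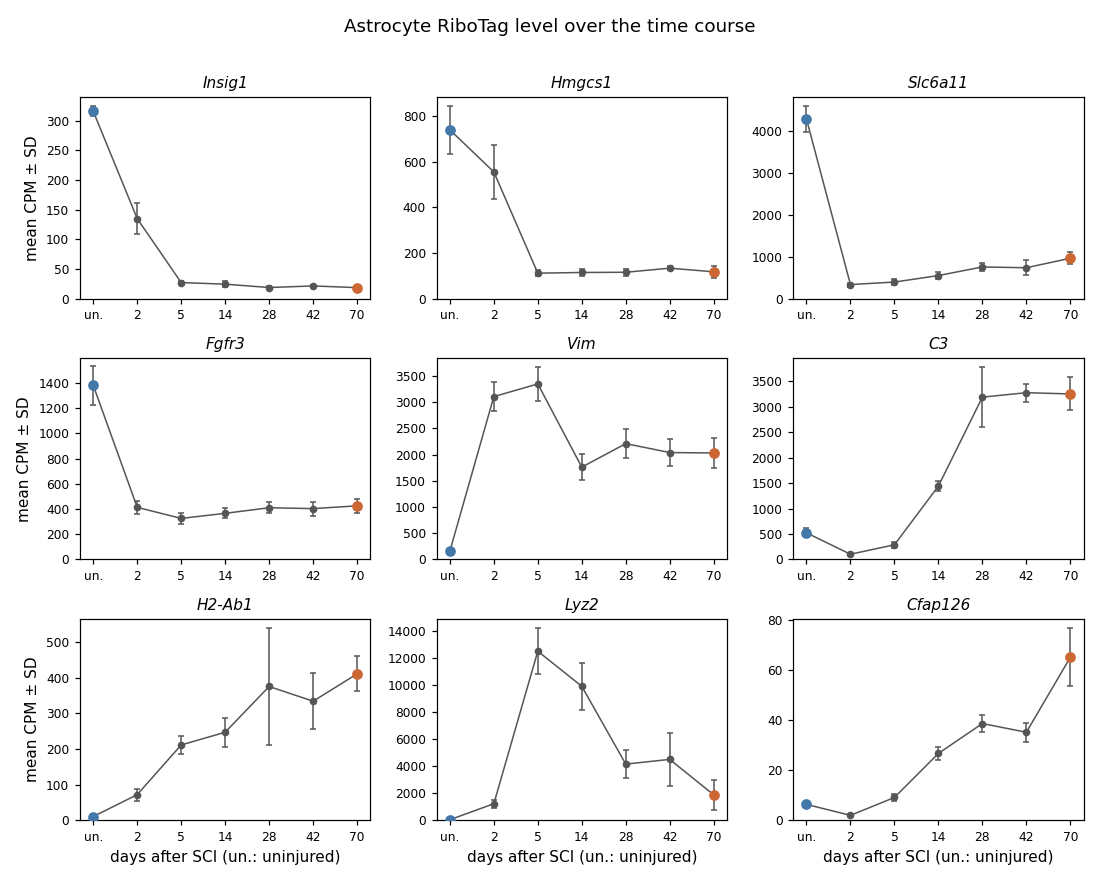
Mean CPM ± SD (y axis, linear from 0) of 9 genes in uninjured and injured astrocyte libraries by day after SCI (x axis, categories, not to scale in days), with 4 libraries at each point and 5 at 2 d. Insig1 and Hmgcs1 stay low from 5 d to 70 d, C3 and H2-Ab1 are near their highest mean at 70 d, and Lyz2 is highest at 5 d.

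Mice of another line, mGfap-RiboTag, gave a comparison that shares no library with the one at 70 d, of 5 astrocyte libraries 14 d after SCI with 5 of uninjured mice at P63. It differs in the Cre line, the time point and the sex of the mice, so only directions were set side by side. Of the 4121 genes higher at 70 d that were tested in both, 2062 (50.0%) were higher and 75 lower at 14 d in mGfap mice, and of 3896 lower genes 1925 (49.4%) were lower and 222 higher. Seen from the mGfap mice, 59.4% of 3473 higher and 65.0% of 2962 lower genes had the same call at 70 d. Of all genes tested in the mGfap mice 20.8% rose and 17.7% fell. Cholesterol synthesis fell there in 20 of 23 genes, uptake in 12 of 12, and the interferon list rose in 24 of 26. Class II genes rose in 6 of 12. Oligodendrocyte markers were higher in 10 of 10 cases, where 8 were lower at 70 d, and motile cilia genes were higher in 4 and lower in 3 of 18, where 13 were higher at 70 d. Insig1 fell there, at log2 -2.78 ± 0.17, while Gfap at -0.02 ± 0.14 and Olig2 at 0.31 ± 0.14 were not called.

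Uninjured mGfap mice also gave classes of astrocyte enrichment that do not use the 8 libraries. Of 3054 tested genes at least 2-fold higher in mGfap astrocyte than flow-through libraries, 1171 (38.3%) fell at 70 d and 729 (23.9%) rose. Of 3763 genes at least 2-fold lower there, 720 (19.1%) fell and 974 (25.9%) rose. Of 2315 genes at least 2-fold higher in newborn (P0) than in P63 mGfap astrocytes, 648 rose at 70 d and 440 fell, and of 2142 genes at least 2-fold lower at P0, 547 rose and 690 fell. Over all genes tested, 23.9% rose and 21.5% fell.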

How the data were processed

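RNA was taken from 117 libraries of mouse spinal cord, of which 8 make up the comparison described here and 56 were read for it. Per the methods of the study, the authors used Trimmomatic to clip paired reads, HISAT2 with the mouse build mm10 for alignment and featureCounts for a count per gene, on Galaxy, with HISAT2 2.1.0 and featureCounts 1.6.3, and deposited 1 raw count per gene and library with no normalization (27179 Entrez genes). Counting without strand cannot tell a gene from an overlapping antisense partner, and reads of near-identical genes may be split or lost. Symbols, exon lengths and promoter sequences came from RefSeq (GRCm38.p6).

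Counts were tested with edgeR 4.0.16 in R 4.3.3 (quasi-likelihood F-test, robust, TMM, filterByExpr, two-sided, Benjamini-Hochberg over all genes tested, FDR under 0.01). All 29 female astrocyte libraries of the time course entered 1 fit. Flow-through values came from a fit of 16 libraries and mGfap values from fits of their own. DESeq2 1.42.0, other scalings, filters and thresholds, the 2 groups alone, a replicate block and leaving out libraries were tried as alternatives. The labels name separate mice. Uninjured and 70 d libraries of the same number are different mice. Astrocyte and flow-through libraries of the same number are the same mouse, and their deviations from the group means correlated at 0.11 to 0.34. With the mouse as a replicate block, the changes of 4401 genes, against 3345 without it, differed between the 2 kinds of library. The edgeR steps were tested on simulated data.

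The gene lists and the comparison were chosen with earlier results of these data known. Genes named were the 10 with the largest fold in each direction (past the threshold, groups not overlapping, at least 10 CPM in the higher group), up to 4 of each list with the largest change (at least 1 CPM) and the member with the highest level per kb. Outside this rule, chosen after their values were seen, stand Aqp4, Axl, Bst2, C4b, Ccl2, Cidea, Ciita, Col1a1, Col3a1, Cspg4, Cxcl10, Dnaic1, Ebp, Gjb6, H2-K1, Ifit1, Ighg2b, Il18, Il33, Isg15, Itgb8, Megf10, Mertk, Mx1, Myoc, Rsad2, Slc1a2, Slc1a3, Slc7a11, Sox9, Srebf2, Tgfbr1, Tgfbr2, Tnc and Vcan. Some genes that this rule names are not reported here. Depth was 80320133 counts or more in each of the 8 libraries.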

Additional observations from a re-analysis of the deposited data

Results flagged for a closer look

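Of 70 groups of 4 libraries tested for a value far from the others, 2 had one. Chance flags about 1 in 20 groups. The T cell marker sum had a highest 70 d library of 33.5 CPM, and Mmp12 a highest uninjured library of 0.266 CPM.

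The change from uninjured to 70 d differed between astrocyte and flow-through libraries of the same mice for 3345 genes in edgeR's interaction test. Among the genes with the largest folds, on the log2 scale and as astrocyte minus flow-through, the difference of change was 5.40 for Ccn5, 4.48 for Ccl8, 3.34 for Igfbpl1 and 2.54 for Tgm1. It was -3.83 for Aqp6, -3.50 for Olig2, -2.84 for Sez6l, -2.58 for Unc13a, -2.48 for Insig1 and -1.85 for Lgr6.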

How the results depend on the processing

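None of the 145 genes named by the rule on size and level turned its direction under any alternative run, and those named outside it were not followed through all of them. Genes named for size were chosen as called and not overlapping in these same libraries. A reversal was thus unlikely from the start, and its absence is no measure of stability. At 70 d against uninjured the count of 8253 was 7142 to 8172 with 1 library left out, 5986 with the 2 groups fitted alone, 8819 in DESeq2, 8247 with DESeq2's size factors, 8268 and 8027 with stricter and looser count filters, 10274 at an FDR under 0.05, and 6913 and 6950 without 70 d libraries 3 and 4 or 1 and 2 (chosen after seeing the data). Numbers do not pair uninjured and 70 d mice (correlations of -0.07, -0.08, -0.06 and -0.01), and a fit of the 2 groups with a replicate block called 4348 of 16850 genes. The comparison with 42 d was the least stable. Its 2293 calls ran from 1391 without 70 d library 2 to 2630 without 70 d library 4, were 1507 without 42 d library 3 and 4288 at an FDR under 0.05, and were 0 of 16692 in edgeR with the replicate block, where 3584 genes had an unadjusted p under 0.05 and DESeq2 without the block called 3028. Genes with a different change in astrocyte and flow-through libraries numbered 5221 at an FDR under 0.05, and with DESeq2's size factors the split was 1304 more positive and 1898 more negative. Hes5, B2m and Tlr3 lost their calls when single libraries were left out, Gbp2 in DESeq2, and Oas1a, Spp1, Fn1, Col6a2 and Cdk1 with the 2 groups fitted alone. In that fit 4 neuron markers were called, against 7, and with the replicate block 5 matrix, 6 proteoglycan, 6 proliferation and 3 T cell genes, against 8, 10, 12 and 5. Among the 145 genes named by the rule, 12 lost their calls with the replicate block. The number was 4 without 70 d libraries 3 and 4, and 4 without 70 d libraries 1 and 2. The causes were not tested. The depth of each library limits only genes of a few counts, such as Ccl8.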
